A study of Mus musculus with 6 samples.

Results

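The transcripts described are those of 9 kinases at the core of the mitogen-activated protein kinase (MAPK) pathways: the MAP kinases Mapk3, Mapk14, Mapk8 and Mapk9 and the MAP kinase kinases (MAP2Ks) Map2k1, Map2k2, Map2k3, Map2k6 and Map2k4. They were picked by name from the 17831 genes of the deposited table, and all 9 were among the 13623 genes tested. Bulk RNAseq was measured in 6 libraries of group 2 innate lymphoid cells (ILC2s) sorted from mouse lung, 3 from WT mice (genotype given as CB57BL/6) and 3 from SIRPα KO mice (the SIRPα tm1Ynliu allele, with no restriction of the knockout to ILC2s stated). SIRPα is an inhibitory receptor for CD47. By the study's methods, age- and sex-matched young adult mice of both genotypes received rmIL-33 intranasally on consecutive days, and the sorted cells were then cultured with rmIL-2 and rmIL-7, so that no library represents unchallenged or freshly isolated cells. The comparison asks how these kinase transcripts differ between activated ILC2s of SIRPα KO and WT mice.

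MAPK pathways pass a signal down a chain in which a MAP3K phosphorylates a MAP2K and the MAP2K phosphorylates a MAP kinase on a threonine and a tyrosine. MEK1 and MEK2 (Map2k1, Map2k2) act on the ERK kinases, MKK3 and MKK6 (Map2k3, Map2k6) on p38, and MKK4 (Map2k4), together with MKK7, on JNK. In ILC2s, IL-33 acts through its receptor ST2 and the adaptor MyD88 on these chains, and p38 is known to phosphorylate GATA-3 and to promote type 2 cytokine production. The chains are switched by phosphorylation of existing protein, which transcript counts do not measure.

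The stretch of each kinase that is phosphorylated is its activation segment. The coding sequence of that segment is shown for the MAP kinases because it holds the sequence that separates the ERK, p38 and JNK classes. Sequences were read from the GENCODE M21 transcripts (GRCm38), 5′ to 3′ on the coding strand, from the codons for Asp-Phe-Gly to those for Ala-Pro-Glu, and capitals mark the 3 codons of the Thr-X-Tyr motif. Codons are counted from the start codon of the longest annotated coding sequence.
Mapk3 (chr7:126763404-126763496, plus strand, exon 4 of 7, codons 203 to 205): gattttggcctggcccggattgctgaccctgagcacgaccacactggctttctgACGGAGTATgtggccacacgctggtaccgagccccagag
Mapk14 (chr17:28728363-28728437, plus strand, exon 7 of 12, codons 180 to 182): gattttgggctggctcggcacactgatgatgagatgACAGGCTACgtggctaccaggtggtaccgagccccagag
Mapk8 (chr14:33392973-33393053, minus strand, exon 6 of 12, codons 183 to 185): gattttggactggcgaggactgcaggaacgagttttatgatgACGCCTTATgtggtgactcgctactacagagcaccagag
Mapk9 (chr11:49872788-49872868, plus strand, exon 6 of 12, codons 183 to 185): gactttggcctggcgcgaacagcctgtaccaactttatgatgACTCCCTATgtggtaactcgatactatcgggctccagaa

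The middle codon of the motif is GAG in Mapk3, GGC in Mapk14 and a CCN codon in both JNK genes. For the MAP2Ks of the p38 and JNK chains, capitals mark the codons of both phosphorylated residues, a serine and a threonine, in segments that each cross an exon boundary.
Map2k3 (chr11:60946697-60947116, plus strand, exons 8 and 9 of 12, codons 218 and 222): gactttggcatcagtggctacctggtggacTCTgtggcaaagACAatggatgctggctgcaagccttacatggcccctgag
Map2k6 (chr11:110496392-110497902, plus strand, exons 8 and 9 of 12, codons 207 and 211): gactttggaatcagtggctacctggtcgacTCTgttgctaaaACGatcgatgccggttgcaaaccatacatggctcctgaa
Map2k4 (chr11:65696360-65707058, minus strand, exons 7 and 8 of 11, codons 255 and 259): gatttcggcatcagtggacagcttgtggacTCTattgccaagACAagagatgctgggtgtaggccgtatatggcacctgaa

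Related members were far from identical in sequence. The coding sequences of Mapk8 and Mapk9 were 75.5% identical, with a longest identical run of 23 bases. Those of Map2k3 and Map2k6 were 72.7% identical, with a longest run of 23 bases, and those of Map2k1 and Map2k2 were 78.4% identical, with a longest run of 56 bases. None of the 9 genes had a near-identical copy among annotated transcripts, and 0 of the 9 shared exon bases with another annotated gene. The genes lie at chr7:126759601-126765819 (Mapk3), chr17:28691329-28748406 (Mapk14), chr14:33377898-33447158 (Mapk8), chr11:49846751-49886421 (Mapk9), chr9:64185770-64253631 (Map2k1), chr10:81105915-81133975 (Map2k2), chr11:60932033-60952811 (Map2k3), chr11:110399122-110525522 (Map2k6) and chr11:65688243-65788297 (Map2k4) in GRCm38, so that 4 of the 9 are on chromosome 11.

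The libraries held 13980499 to 19051507 reads on genes, each made from 10 pg of RNA. Labels give WT replicates 1 and 2 the same code, 37, and SIRPα KO replicates 2 and 3 the same code, 44. Should a shared code mean a shared sample, each genotype would be represented by 2 samples, and p-values based on 3 would be too small. The series' own design text speaks of duplicates, although 3 libraries per genotype are labelled. Nothing states that the libraries came from separate animals, so p-values measure the spread between libraries. WT replicate 3, which carries another code, 38, stood apart. The biological coefficient of variation (edgeR) was 38.0% among WT libraries, beside 15.2% among SIRPα KO libraries. Once WT replicate 3 was left out it was 27.9%, for libraries that share code 37 and may not measure spread between samples. Sirpa was at 8.57, 6.83 and 4.83 CPM (counts per 1000000 reads of the library, its size adjusted by TMM) in WT and at 3.07, 4.46 and 1.74 CPM in SIRPα KO. The fold change of Sirpa was -1.12 on the log2 scale (SE 0.42, adjusted p = 0.115 by edgeR). The groups did not overlap for Sirpa, although reads remained in every SIRPα KO library. All 12 ILC2 markers, among them Gata3 and Il1rl1, were detected in every library, with a summed level of 13083 to 14200 CPM in WT and 17471 to 18042 CPM in SIRPα KO. Most of this sum was Il5, at 8448 to 9711 CPM in WT and 12589 to 13241 CPM in SIRPα KO. Among the others, Il1rl1, Il7r, Il13 and Ptprc were higher in every SIRPα KO library, and Id2 (1129 to 1402 against 782 to 849 CPM), Icos, Klrg1 and Thy1 (12.1 to 23.0 against 3.64 to 4.16 CPM) were lower in every one. The groups overlapped for Gata3, Rora and Areg. All 12 were tested, and 4 passed (adjusted p under 0.05 by edgeR), against 11.7% of all genes tested. Marker sums of other lymphocytes were higher in WT, at 206 to 273 against 123 to 132 CPM for T cells, 112 to 209 against 16.9 to 35.7 CPM for B cells and 13.9 to 25.3 against 1.73 to 3.73 CPM for NK cells. Of these lists 7 of 8, 5 of 6 and 5 of 5 genes were in the table. Of those tested, 3 of 4, 4 of 5 and 3 of 5 passed, beside the same 11.7% of all genes. The T cell sum was made mostly of Trbc2 (132 to 179 against 89.7 to 95.5 CPM), Trbc1 (48.2 to 71.7 against 28.2 to 33.1 CPM) and Cd3g (16.4 to 21.2 against 3.15 to 3.64 CPM), while Cd3e was at 2.42 CPM or less and Cd4 was at 0 in 5 of the 6 libraries. The macrophage or monocyte sum overlapped between the groups (45.2 to 128 against 79.2 to 122 CPM), and of its 8 genes that were tested 1 passed, Itgam (0.46 to 3.98 against 9.33 to 13.3 CPM). Of 3 epithelial, endothelial or fibroblast genes tested 2 passed, with Pecam1 higher in SIRPα KO (16.2 to 27.4 against 40.3 to 43.8 CPM) and Epcam lower in every SIRPα KO library (9.73 to 17.3 against 5.27 to 6.51 CPM). SIRPα KO replicate 1 stood alone for Epx (9.65 CPM, and 0 in the other libraries) and Scgb1a1 (0.064 CPM, against 34.8 to 60.8 CPM). WT replicate 3 was the sole library with reads of Mpo (10.99 CPM) and was the highest library for Marco (6.49 CPM, against 1.15 CPM or less) and Lyz2 (82.1 CPM, against 21.1 and 22.8 CPM in the other WT libraries). The part of these markers in the kinase results was not tested.

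Of the 9 kinase transcripts, 1 passed the test (edgeR's quasi-likelihood test, adjusted p under 0.05 over all genes tested), and it was lower in SIRPα KO. This was Mapk3. Over all genes tested, 11.7% passed, 5.94% higher and 5.81% lower. The groups did not overlap for 5 members, 4 of them higher and 1 lower in SIRPα KO, against 42.8% of all genes, 21.6% higher and 21.2% lower. Fold changes were positive for 6 members and negative for 3, with a median of 0.14 on the log2 scale against -0.025 over all genes. Before adjustment, p was under 0.05 for 3 of the 9, against 32.0% of all genes. DESeq2 passed 2 members, Mapk14 (higher) and Mapk3 (lower), against 26.9% of the genes it gave an adjusted p, 14.9% higher and 12.0% lower. With the offset for transcript length and GC described below, edgeR passed Mapk3 alone, against 8.9% of all genes, 4.11% higher and 4.79% lower. The description below concerns single genes.

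**Figure D1:**
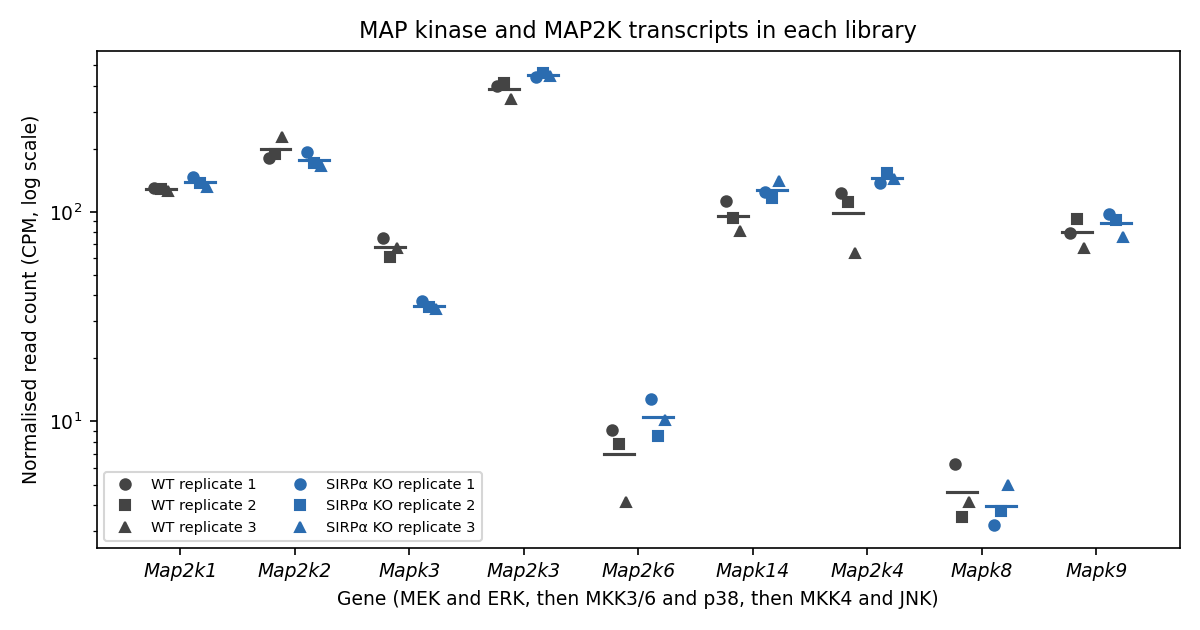
Normalised read count (CPM after TMM scaling, log axis) of each kinase transcript in each of the 6 libraries, with WT in grey and SIRPα KO in blue. Symbols mark the replicate and horizontal lines the group mean. The Mapk3 values of SIRPα KO, 34.3 to 37.6 CPM, lie below all WT values, 60.8 to 75.4 CPM.

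Mapk3 encodes ERK1, a kinase at the end of the growth factor and Ras chain. Its level was 75.4, 60.8 and 66.9 CPM in WT replicates 1 to 3 and 37.6, 35.0 and 34.3 CPM in SIRPα KO replicates 1 to 3, from 855 to 1312 reads in WT and 553 to 667 reads in SIRPα KO. Every SIRPα KO library lay below every WT library, and the values of SIRPα KO lay closer together than those of WT. The mean fell from 67.7 ± 7.35 CPM to 35.6 ± 1.76 CPM (SD, n = 3), and the fitted level was 0.526 times that of WT. On the log2 scale the change was -0.93 (SE 0.14, 95% confidence interval -1.26 to -0.59, adjusted p = 0.0144 by edgeR). As in any bulk sample, fewer cells expressing a gene and less RNA per cell cannot be told apart.

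The size of the fall of Mapk3 changed little when a SIRPα KO library was left out, while its call was lost. Without SIRPα KO replicate 1, 2 or 3 it was -0.96, -0.91 or -0.89 on the log2 scale, with adjusted p = 0.10, 0.10 or 0.087 by edgeR. Leaving out WT replicate 1 or 2 kept the call, with adjusted p = 0.0360 or 0.0152 by edgeR. Without WT replicate 3 the change was -0.93, but the WT libraries left share code 37 and may be 1 sample. After the counts of libraries that share a code were added together, the change of Mapk3 was -0.90. Its adjusted p was 0.130 by edgeR on 2 samples a group, where 0.0686% of all genes passed. Mapk3 has the shortest transcript of the 9, at 1800 bases, and fold changes over the whole table moved with transcript length, from a median of -0.54 in the decile of shortest genes to 0.46 in the longest. When the fit held an offset for these properties (transcript length and GC content), Mapk3 changed by -0.56 (adjusted p = 0.0442 by edgeR), less than before and still past the threshold. Over every alternative run, its adjusted p lay between 1.57e-07 (DESeq2) and 0.130.

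The kinases above ERK differed less. Map2k1 encodes MEK1, and its level was 130, 128 and 126 CPM in WT and 146, 137 and 131 CPM in SIRPα KO. The groups did not overlap, but the lowest SIRPα KO library was barely above the highest WT library, and the log2 fold change of 0.11 (SE 0.11, adjusted p = 0.499 by edgeR) was about the size of its standard error. The interval of the change was -0.13 to 0.36 on the log2 scale. Map2k2 encodes MEK2 and was at 180, 189 and 228 CPM in WT and 193, 171 and 166 CPM in SIRPα KO. These groups overlapped, with a log2 fold change of -0.17 (interval -0.47 to 0.13, adjusted p = 0.397 by edgeR) that became 0.13 with the length and GC offset and -0.054 without WT replicate 3. For neither MEK transcript was a difference detectable at this replication.

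In the p38 chain, the transcripts of the kinase and of Map2k3, one of its activators, were each higher in all SIRPα KO libraries, and neither passed the test. Mapk14 encodes p38α. Its level was 112, 93.7 and 81.4 CPM in WT and 124, 117 and 141 CPM in SIRPα KO, from 1229 to 1951 and 1944 to 2275 reads. The lowest SIRPα KO library, replicate 2, lay just above the highest WT library, replicate 1. Mapk14 changed by 0.41 (log2, SE 0.15, interval 0.058 to 0.76), with an adjusted p of 0.113 by edgeR and 0.0446 by DESeq2. It ranged from 0.31 to 0.54 when 1 library was left out. Over the alternatives run, DESeq2 gave the lowest adjusted p and a fit without SIRPα KO replicate 3 the highest, 0.312.

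Map2k3 encodes MKK3, which activates p38. Its level was 397, 411 and 347 CPM in WT and 440, 458 and 445 CPM in SIRPα KO. WT replicate 3 was the lowest library, and the SIRPα KO libraries lay close together (SD 9.57 CPM, against 34.0 CPM in WT). Its log2 fold change was 0.22 (SE 0.10, interval -0.019 to 0.45, adjusted p = 0.185 by edgeR). With the length and GC offset it was 0.40 (adjusted p = 0.0536 by edgeR), just outside the threshold and the lowest over the alternatives run, of which the highest was 0.427.

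Map2k6 encodes MKK6, the close relative of MKK3, and was scarce in these cells. Its level was 9.14, 7.82 and 4.11 CPM in WT and 12.8, 8.55 and 10.2 CPM in SIRPα KO, from 62 to 159 and 163 to 200 reads. The groups overlapped because SIRPα KO replicate 2 lay below WT replicate 1. The log2 fold change of 0.58 had an interval of -0.21 to 1.37 and an adjusted p of 0.277 by edgeR, so that the interval held both no change and a log2 fold change of 1. Leaving out 1 library at a time gave values from 0.31 (WT replicate 3 omitted) to 0.82 (WT replicate 1 omitted).

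Map2k4 encodes MKK4, which phosphorylates JNK and can phosphorylate p38. Its level was 123, 111 and 63.6 CPM in WT and 138, 153 and 143 CPM in SIRPα KO. The groups did not overlap, and WT replicate 3 was far below the other WT libraries. A log2 fold change of 0.55 was fitted (SE 0.23, interval 0.017 to 1.07, adjusted p = 0.147 by edgeR). Without WT replicate 3 it was 0.32 (adjusted p = 0.0503 by edgeR), and with the length and GC offset 0.28 (adjusted p = 0.293 by edgeR). Over the alternatives run, the adjusted p of Map2k4 lay between 0.0503 and 0.340.

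The JNK transcripts did not separate the genotypes. Mapk8 encodes JNK1 and was at 6.27, 3.48 and 4.11 CPM in WT and 3.20, 3.73 and 4.96 CPM in SIRPα KO, from 49 to 109 reads. The highest library and the lowest were WT replicate 1 and SIRPα KO replicate 1, and the remaining libraries of both groups were mixed. The fold change was -0.22 (log2, interval -1.07 to 0.62, adjusted p = 0.703 by edgeR) and was 0.066 without WT replicate 1. With the length and GC offset Mapk8 was at -0.76 (adjusted p = 0.223 by edgeR). Mapk9 encodes JNK2 and was at 79.6, 92.9 and 67.5 CPM in WT and 98.0, 91.0 and 75.9 CPM in SIRPα KO. Its groups overlapped, with a log2 fold change of 0.14 (interval -0.24 to 0.52, adjusted p = 0.578 by edgeR) that was -0.22 with the length and GC offset. Leaving out 1 library gave 0.041 to 0.26 for Mapk9.

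The study reports Mapk14 as upregulated from these same libraries, so that its direction here is not independent evidence. By flow cytometry, the study also reports more p38 in SIRPα KO ILC2s and less p38 in WT ILC2s given CD47-Fc. Under every alternative run, the log2 fold change stayed positive for Mapk14, Map2k3, Map2k4, Map2k6 and Map2k1 and negative for Mapk3, while those of Mapk8, Mapk9 and Map2k2 changed sign under at least 1.

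**Figure D2:**
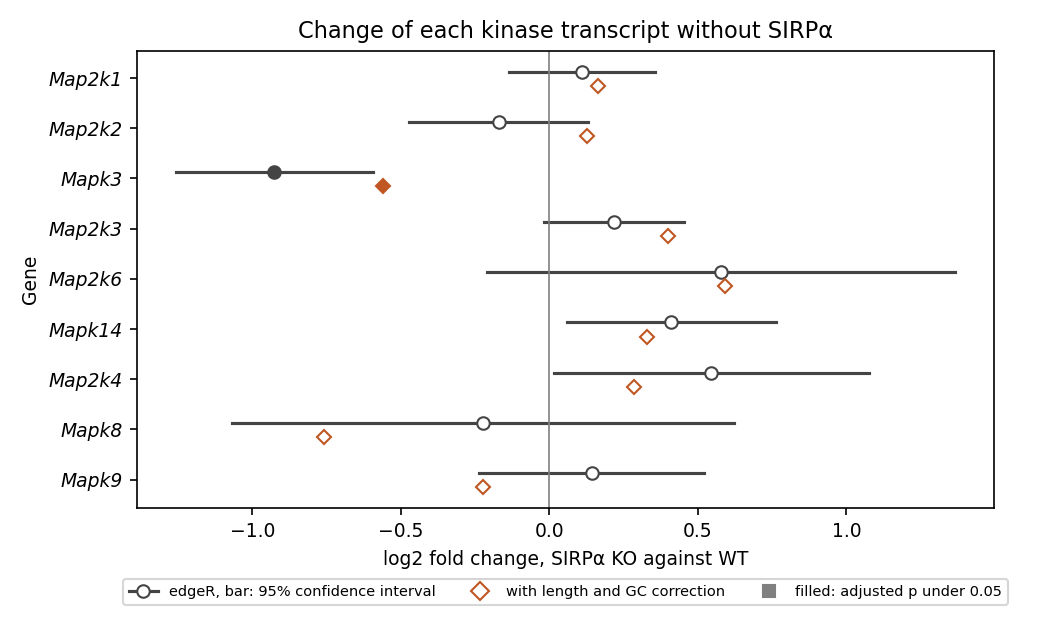
The log2 fold change of each kinase transcript, SIRPα KO against WT, from edgeR with its 95% confidence interval (circles and bars) and after an offset for transcript length and GC content (diamonds), with filled symbols where the adjusted p was under 0.05. Mapk3 alone is filled, at -0.93 and -0.56, while Mapk9 and Map2k2 change sign between both fits.

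Levels of different genes were compared per kilobase of the longest annotated transcript. In WT the order was Map2k3 (175 CPM per kb), Map2k2 (82.7), Map2k1 (52.5), Mapk3 (37.6), Map2k4 (26.8), Mapk14 (26.7), Mapk9 (17.1), Map2k6 (3.36) and Mapk8 (0.802). Among neighbours in this order, only the ranges of Map2k4 and Mapk14 overlapped. Map2k3 thus held 41.4% of the summed level of the 9 transcripts in WT and 45.0% in SIRPα KO, and JNK1 was the scarcest in both genotypes. In SIRPα KO the order was Map2k3 (204 CPM per kb), Map2k2 (73.5), Map2k1 (56.7), Map2k4 (39.2), Mapk14 (35.4), Mapk3 (19.8), Mapk9 (18.9), Map2k6 (5.03) and Mapk8 (0.688). Mapk3 went from the fourth place to the sixth, with a range that overlapped that of Mapk9, and Mapk14 and Map2k4 overlapped here as well. Which transcripts a cell makes was not known, so that a gene expressed mainly as a shorter form would have a higher level per kilobase than given.

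For 3 pairs of related members the mix within the pair was compared by an exact two-sided permutation test on the log2 CPM ratio per library, which cannot give a p below 0.1 with 3 libraries a group. The Map2k1 to Map2k2 log2 ratio was -0.47, -0.56 and -0.86 in WT and -0.40, -0.32 and -0.34 in SIRPα KO. These groups did not overlap, and the difference of 0.28 had the smallest p the design allows, 0.1 (exact permutation, adjusted p = 0.3 over 3 pairs). It was 0.16 without WT replicate 3 and 0.035 with the length and GC offset. The Mapk8 to Mapk9 log2 ratio was -4.15 ± 0.54 in WT and -4.49 ± 0.51 in SIRPα KO (SD, n = 3), with overlapping groups (exact permutation p = 0.5, adjusted p = 0.5). The Map2k3 to Map2k6 log2 ratio was 5.85 ± 0.49 in WT and 5.43 ± 0.32 in SIRPα KO (SD, n = 3), also with overlap (exact permutation p = 0.5, adjusted p = 0.5). With an adjusted p that cannot pass at this number of libraries, the test leaves a shift in any of these mixes unresolved.

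**Figure D3:**
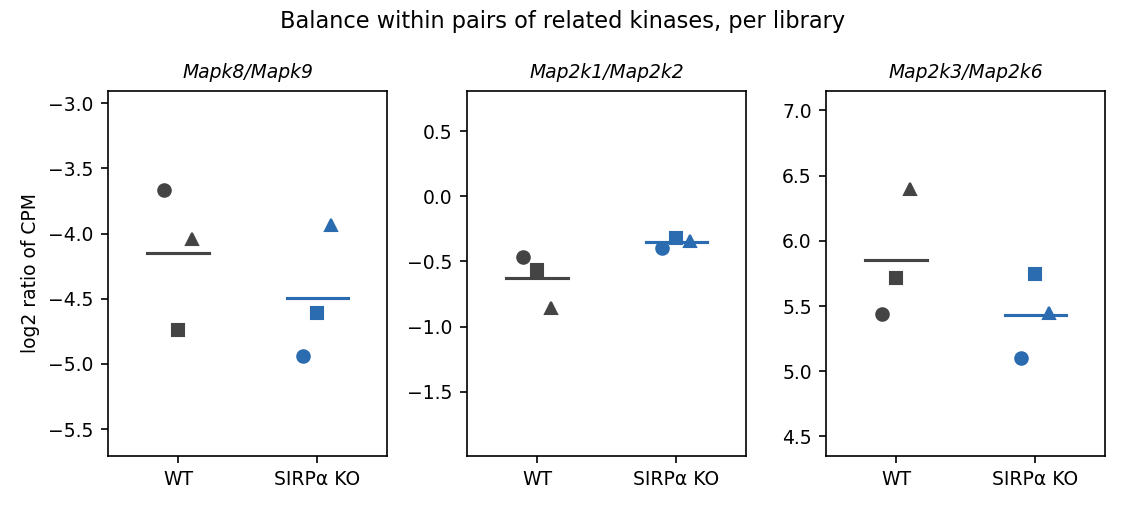
The log2 ratio of CPM within 3 pairs of related kinases in each library, on axes of equal span, with WT in grey, SIRPα KO in blue and lines at the group means. The Map2k1 to Map2k2 ratio is higher in all 3 SIRPα KO libraries (-0.40 to -0.32) than in WT (-0.86 to -0.47), and the groups overlap for the other pairs.

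Of the other MAP kinases and MAP2Ks on a list of 11, 8 were in the table and 7 were tested. Of these, 1 passed the test, against 11.7% of all genes tested. It was Mapk6, which was higher in SIRPα KO. Mapk6 encodes the atypical kinase ERK3 and was at 63.4, 63.9 and 45.3 CPM in WT and 101, 103 and 118 CPM in SIRPα KO. It rose by 0.90 on the log2 scale (SE 0.17, adjusted p = 0.0207 by edgeR), and 0.59 with the length and GC offset (adjusted p = 0.0213 by edgeR). Of the other p38 isoforms, Mapk13 had 0 to 11 reads per library and was not tested, and Mapk11 and Mapk12 had log2 fold changes of -0.34 and -0.48 with overlapping groups (adjusted p = 0.293 and 0.317 by edgeR). Map2k7 (MKK7), which acts on JNK beside MKK4, had 0.22 with overlapping groups. The median of the 7 was 0.048, and -0.19 with the offset.

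Upstream, the MAP3Ks and the partners of TAK1 gave 1 call among 22 tested, against 11.7% of all genes. This was Taok3, a kinase of the TAO family, with a log2 fold change of 0.50 (adjusted p = 0.0482 by edgeR). Taok3 lost its call with the offset (0.27, adjusted p = 0.237 by edgeR). Map3k7, which encodes TAK1, the MAP3K below the IL-33 receptor, averaged 70.4 ± 18.7 CPM in WT libraries against 104 ± 5.48 CPM in SIRPα KO libraries (SD, n = 3), with 0.56 as its log2 fold change (adjusted p = 0.104 by edgeR and 0.0379 by DESeq2). With the offset it was 0.12 (adjusted p = 0.568 by edgeR). Map3k1, which encodes MEKK1, had a log2 fold change of -0.51 (adjusted p = 0.198 by edgeR) with overlapping groups, and passed with the offset at -0.90 (adjusted p = 0.030 by edgeR). Of the TAK1 partners, Tab3 was higher in every SIRPα KO library, at 0.86 (log2, adjusted p = 0.0773 by edgeR and 0.0241 by DESeq2). Tab2 was lower in every one, at -0.32 (adjusted p = 0.212 by edgeR). With the offset Tab3 was at 0.30 and Tab2 at -0.64 (adjusted p = 0.544 and 0.111 by edgeR). Map3k7, Map3k1, Tab3 and Tab2 are named after their values were seen. The median of this list was 0.063, and -0.044 with the offset.

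Downstream, 1 of 9 MAPK-activated kinases passed, near the 11.7% of all genes tested. Rps6ka5 encodes MSK1, a nuclear kinase activated by both ERK and p38. Its level was 34.6, 37.6 and 25.4 CPM in WT and 71.9, 73.8 and 73.6 CPM in SIRPα KO, with every SIRPα KO library above every WT library. The rise was 1.17 on the log2 scale (SE 0.17, adjusted p = 0.0136 by edgeR), and 0.69 with the offset (adjusted p = 0.0138 by edgeR). The remaining 8 kinases of this list did not pass, and the list's median was 0.042.

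Of 11 scaffolds tested, 2 passed, both lower in SIRPα KO, against 11.7% of all genes, 5.81% lower. Arrb2, β-arrestin 2, which holds ERK and JNK chains together at receptors, was at 164, 152 and 154 CPM in WT and 74.6, 81.4 and 88.5 CPM in SIRPα KO. Arrb2 changed by -0.94 (log2, SE 0.12, adjusted p = 0.00937 by edgeR), and -0.64 with the offset (adjusted p = 0.0196 by edgeR). Lamtor2, which anchors MEK1 at late endosomes, had a log2 fold change of -0.78 (adjusted p = 0.0252 by edgeR) that was -0.049 with the offset (adjusted p = 0.871).

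Of 9 dual-specificity phosphatases, which remove the activating phosphates, 0 passed in edgeR and 0 in DESeq2, and 2 had an unadjusted p under 0.05 in edgeR, which 32.0% of all genes had. Those were Dusp6, which acts on cytoplasmic ERK, with 232 ± 32.7 and 182 ± 4.63 CPM in WT and SIRPα KO (SD, n = 3), and Dusp5, which acts on nuclear ERK, with 73.5 ± 20.2 and 46.8 ± 9.96 CPM (SD, n = 3). Fold changes were negative for 7 of the 9, and for 7030 of the 13623 genes tested. Over all genes, 11.7% passed in edgeR, and 26.9% of those with an adjusted p passed in DESeq2. The median of the 9 was -0.25, and -0.10 with the offset. Both were named after their values were seen, and with the offset Dusp6 passed at a log2 fold change of -0.42 (adjusted p = 0.0442 by edgeR).

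Of 12 transcription factors that MAP kinases phosphorylate, 1 passed as higher and 2 as lower, against 5.94% and 5.81% of all genes. Mef2a, a p38 substrate, rose by a log2 fold change of 1.05 (adjusted p = 0.0418 by edgeR). Ddit3 (CHOP), a stress factor that p38 phosphorylates, was at 39.5, 39.7 and 41.6 CPM in WT and 15.9, 16.9 and 18.7 CPM in SIRPα KO, and changed by -1.23 on the log2 scale (SE 0.16, adjusted p = 0.00958 by edgeR). Max, the partner of Myc, had a log2 fold change of -0.81 (adjusted p = 0.0361 by edgeR). With the offset, Ddit3 kept its call at -0.92 (adjusted p = 0.0188) and Mef2a and Max lost theirs at 0.61 and -0.69 (adjusted p = 0.0587 and 0.0563). Elk3 did not pass in the main test (log2 fold change -0.34, adjusted p = 0.107 by edgeR). It passed with the offset at -0.60 (adjusted p = 0.0220 by edgeR) and in DESeq2 at -0.32 (adjusted p = 0.0497). Over the alternatives run, adjusted p-values of the 8 genes called in these lists in the main test reached a maximum of 0.130 (Rps6ka5, Arrb2 and Ddit3) to 0.871 (Lamtor2). None of them kept its call when any 1 SIRPα KO library was left out or when libraries that share a code were added together.

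**Figure D4:**
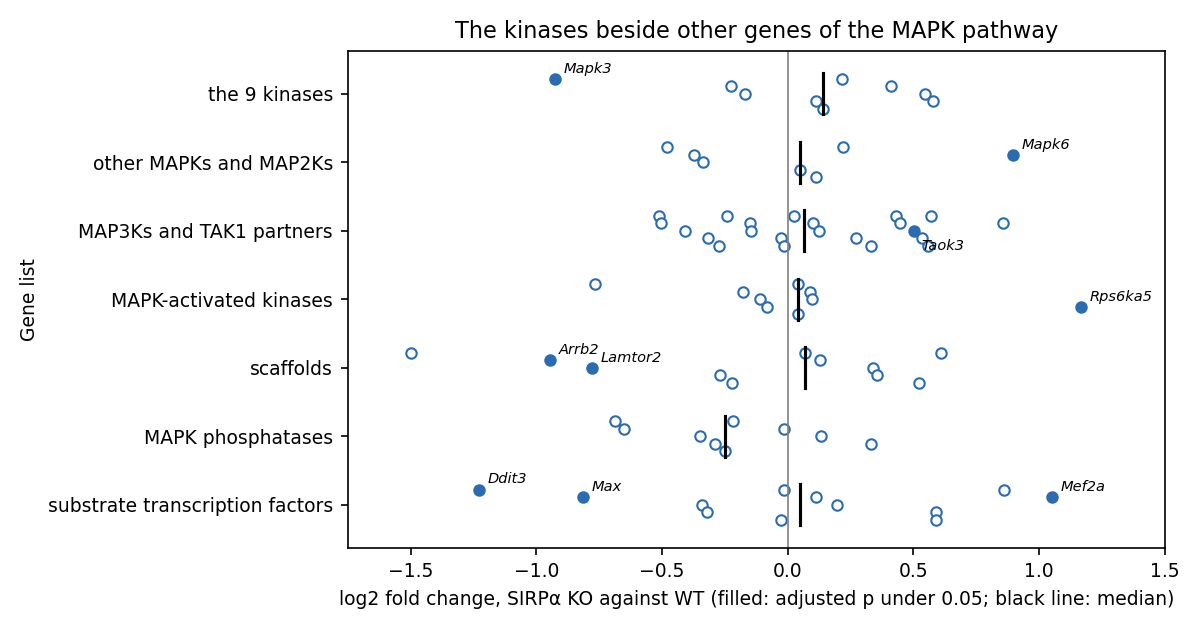
The log2 fold change, SIRPα KO against WT, of the 9 kinases and of the genes in 6 lists of the MAPK pathway. Each circle is a gene, filled and named where edgeR's adjusted p was under 0.05, and black lines mark list medians. Most genes lie within 1 log2 unit of 0, and filled circles lie on both sides.

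The genes most like Mapk14 over the 6 libraries were found by the root mean square difference of their centred log2 CPM, among 9138 genes. The nearest were Exosc9 (0.022), Trim59 (0.036), Tmem248 (0.037), Gsr (0.045) and Slc25a22 (0.045), against a median of 0.361. Like Mapk14, none of these 5 passed the test, with log2 fold changes of 0.33 to 0.42. That likeness follows from how the genes were chosen, in the same libraries. Among the kinases, Map2k3 was nearest (0.166), followed by Map2k1 (0.226), Map2k4 (0.233), Mapk9 (0.266) and Map2k6 (0.302). Map2k2 (0.394) and Mapk3 (0.685) were farther from Mapk14 than the median gene. Mapk8 was too scarce to enter this comparison.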

How the data were processed

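The authors aligned reads to the mouse genome and deposited estimated counts per gene, not scaled for library size, which were used here for 3 WT and 3 SIRPα KO libraries. The submitters' processing notes name Partek 10.0, STAR 2.7.8, DESeq2 and mm10, while the study's methods give other versions of Partek and STAR and name the GENCODE M21 annotation. Handling of strand and of reads on several genes is not given in the sources used here. Gene columns were listed by name for 140 of 17831 genes, and the rest hold the same unit. Between 57.3% and 61.3% of values in a library were whole (tolerance 1e-06) before rounding.

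Counts were rounded and tested with edgeR 4.0.16 in R 4.3.3 (quasi-likelihood, TMM scaling, filterByExpr, which asked for 15 reads over all libraries and the equivalent of 10 at the median depth, genotype alone) with Benjamini-Hochberg adjustment over 13623 genes and a threshold of 0.05. Standard errors came from the F statistic. Symbols matched GENCODE M21 directly for 17400 genes and through synonyms for 220, and 211 were unmatched. Length and GC content of the longest transcript were known for 99.12% of tested genes, and the offset came from splines (5 degrees of freedom per property), fitted in each library to 8907 genes outside the lists. Near-identical copies were sought with BLAST+ 2.17.0 (at least 95% identity over 50% of the length). Coding sequences were aligned with Biopython 1.88, and figures drawn with matplotlib 3.10.9. The edgeR procedure was also run on simulated data, with independent libraries and the same spread in both groups, which these libraries need not have.

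The members and all lists were chosen with earlier results of these data known. Named are all 9 kinases, every gene of a list past the threshold, the 5 genes nearest Mapk14 whose average log2 CPM reached 3, and Sirpa. Mapk11, Mapk12, Mapk13, Map2k7, Map3k7, Map3k1, Tab2, Tab3, Dusp5, Dusp6, Elk3, Iqgap1 and single cell type markers fall outside this rule and were named after their values were seen. Alternatives were DESeq2 1.42.0, RLE and upper quartile factors, other filters, a replicate block, summed codes, the offset and leaving out each library. The offset was added to the pair ratios after seeing the data. A result on another kinase is not reported here. Protein and single-cell measurements were not analysed here.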

Additional observations from a re-analysis of the deposited data

How the results depend on the processing

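Mapk8 and Map2k6 had 49 to 200 reads per library, so that counting error adds to their spread. The 1600 genes called became 3214 with DESeq2 and 10 with libraries of one code summed, and ranged from 16 to 2606 when 1 library was left out, lowest without SIRPα KO replicate 1 and highest without WT replicate 3. The kinases called, 1 in the main test, were 2 with DESeq2 (Mapk14 added), 0 with codes summed and 0 to 1 when 1 library was left out. Without SIRPα KO replicate 1 the libraries left of that group share code 44, and without WT replicate 3 those of WT share code 37. The cause of these shifts was not tested.

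Other MAP kinases and MAP2Ks went from 1 to 0 with codes summed and 0 to 1 with 1 library left out. MAP3Ks went from 1 to 3 with DESeq2, 0 with upper quartile factors, without a filter and with codes summed, and 0 to 3 with 1 library left out. MAPK-activated kinases went from 1 to 0 with codes summed and 0 to 1 with 1 library left out. Scaffolds went from 2 to 0 with codes summed, 1 with the offset and 0 to 3 with 1 library left out, the third being a call in the higher direction (Iqgap1, without WT replicate 3). Phosphatases went from 0 to 1 with upper quartile factors and with the offset, and 0 to 1 with 1 library left out. Transcription factors went from 3 to 1 without a filter, 0 with codes summed and 0 to 5 with 1 library left out.

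Directions reversed for Mapk8 (0.066 without WT replicate 1, with -0.41 to 0.066 over the libraries left out), Mapk9 (-0.22 with the offset) and Map2k2 (0.13 with the offset), none of them called. Upper quartile factors shifted the median of all genes by -0.10 on the log2 scale.

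Replicate numbers did not pair the libraries: deviations of same-numbered libraries correlated at -0.14, 0.19 and 0.045. With the replicate number as a block, 1118 genes were called, 1 of the 9 kinases (Mapk3, adjusted p = 0.0332 by edgeR) and 0 of the MAP3Ks, and no other list's count changed. Not every library correlated best with its own number.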
